A study of Homo sapiens with 8 samples.

Results

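PINK1 and the cargo receptors of mitophagy were followed at the RNA level in LUHMES neurons whose respiration had been blocked. The 9 genes were taken by symbol: the kinase PINK1, the 5 ubiquitin-binding adaptors SQSTM1, OPTN, CALCOCO2, TAX1BP1 and NBR1, and the 3 receptors of the outer mitochondrial membrane BNIP3, BNIP3L and FUNDC1. They are 9 of 62826 genes listed and of 19785 genes that passed a filter on low counts, and all 9 passed it. The treated group was 4 libraries of wild-type LUHMES cells given antimycin A at 25 µM with oligomycin at 10 µM for 8 h, and the other group was 4 libraries of the same cells given DMSO. Antimycin A inhibits respiratory complex III and oligomycin inhibits the ATP synthase. Both groups had been differentiated for 6 days in medium with tetracycline (1 µg/mL), GDNF (2 ng/mL) and dbcAMP (1 mM). LUHMES is a clonal human mesencephalic line held in division by a tetracycline-repressed v-myc transgene, so the groups share 1 genetic background and 1 clone. The series text speaks of independent batches with 4 technical replicates in each. The libraries are numbered 2 to 5 in each group, and each number is 1 library per group here. The labels do not say whether a number marks a batch shared by both groups.

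Mitophagy is the removal of mitochondria by autophagosomes. In healthy mitochondria PINK1 is imported and degraded. When import fails it stays on the outer membrane and phosphorylates ubiquitin, and ubiquitin chains build up on outer-membrane proteins. Adaptor proteins then bind the ubiquitin chains with one domain and LC3 or GABARAP on the autophagosome membrane with another. BNIP3, BNIP3L and FUNDC1 sit in the outer membrane and bind LC3 directly, without ubiquitin. Loss of PINK1 causes an early-onset form of Parkinson disease, in which dopaminergic neurons of the midbrain are lost. Much of this pathway is controlled on proteins, by stabilisation, phosphorylation and ubiquitin, which RNA counts do not measure.

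The libraries held 93.8 to 109 M estimated reads in treated cells and 93.7 to 110 M in vehicle cells, and each member had at least 874 reads in every library. One library stood apart from its group. Vehicle replicate 2 had 13.4% of its reads on the mitochondrial genome, against 3.90 to 5.23% in the other vehicle libraries and 4.82 to 6.74% in treated libraries. It also separated on the second principal component of log2 CPM (10.3% of the variance), while the first (71.5%) separated the groups. Results that turn on it are given with and without it, and its part in the others is in the closing section. All 6 neuronal markers were above 1 CPM in every library, with a summed level of 3634 to 3691 CPM in treated and 4553 to 4853 CPM in vehicle cells. SNAP25 went against that sum, at 92.3 to 103 CPM in treated and 64.3 to 83.4 CPM in vehicle cells. Of 8 dopaminergic markers, TH, SLC6A3 and NR4A2 were above 1 CPM in every library, LMX1A had no reads, FOXA2 was at or near 0, and PITX3, SLC18A2 and DDC were below 1 CPM. TH was higher without overlap, at up to 18.3 CPM in treated and 5.84 to 8.92 CPM in vehicle cells. SLC6A3 and NR4A2 overlapped between the groups. DDC was lower without overlap, at 0.193 to 0.266 CPM in treated and 0.418 to 0.633 CPM in vehicle cells. PITX3 was also lower without overlap, at 0.0305 to 0.0570 CPM in treated and 0.0661 to 0.136 CPM in vehicle cells. Of all genes tested, 53.4% had groups that did not overlap in CPM. None of 4 astrocyte and none of 4 microglial markers reached 1 CPM in all libraries, and of 3 oligodendrocyte markers MBP did, at 3.05 to 4.19 CPM in treated and 2.25 to 4.25 CPM in vehicle cells. The 4 cycling progenitor markers summed to 158 to 177 CPM in treated and 216 to 310 CPM in vehicle cells. The part of these shifts in the results was not tested. In bulk RNA, fewer cells of a type and less RNA per cell cannot be told apart.

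The adaptors rose and the kinase and membrane receptors mostly did not. With edgeR's quasi-likelihood test and a Benjamini-Hochberg adjusted p under 0.05 over all genes, 6 of the 9 members were called, against a background of 57.9% of all genes tested. All 5 adaptors were higher in treated cells, where 27.7% of all genes were called higher. FUNDC1 was the 1 member called lower, where 30.2% of all genes were called lower. PINK1, BNIP3 and BNIP3L were not called. The median log2 fold change of treated over vehicle was 0.21 over the members and -0.02 over all genes tested. On CPM, read counts scaled to TMM-adjusted library sizes, the groups did not overlap for 6 of 9 members, against 53.4% of all genes tested.

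**Figure D1:**
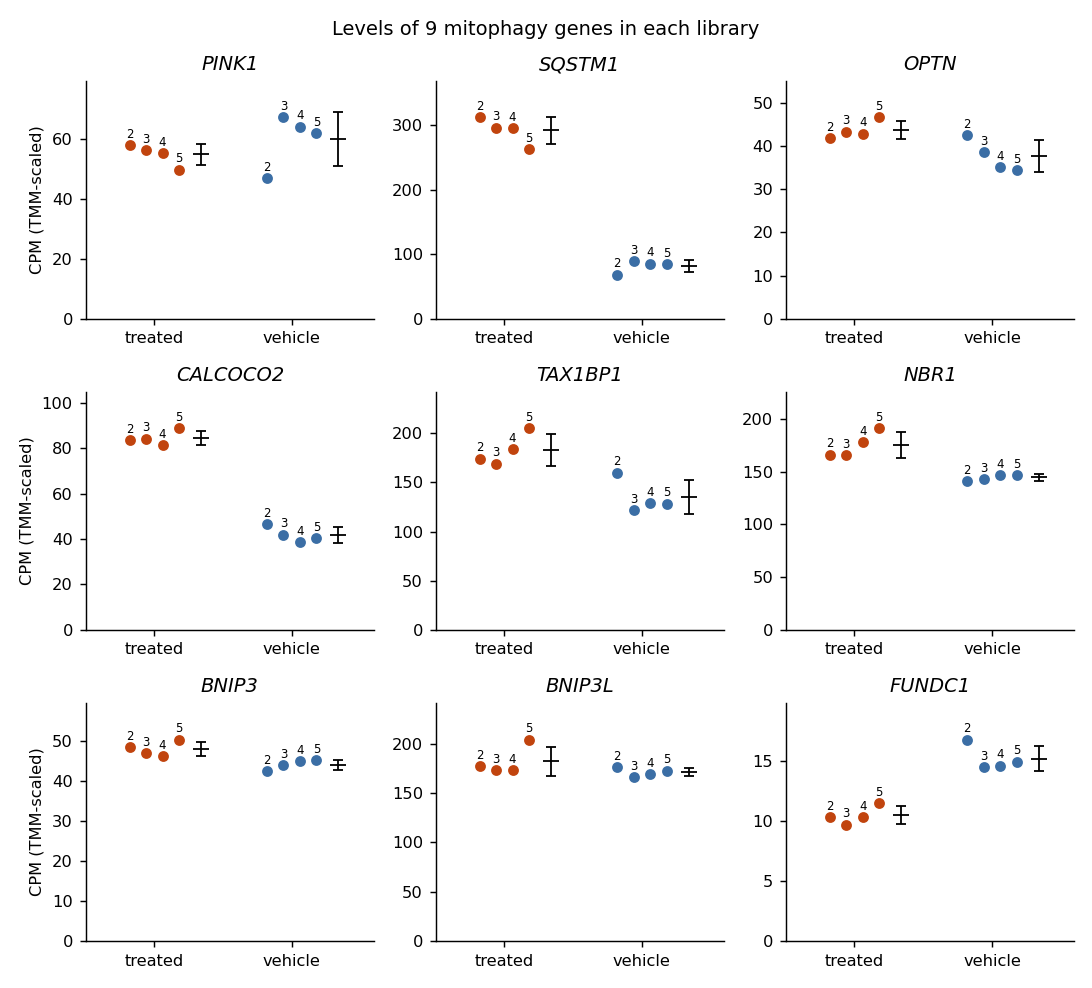
TMM-scaled CPM of the 9 members in each library, treated cells left and vehicle cells right in each panel, with each point numbered by its differentiation batch and the bar giving the mean and SD (n = 4). SQSTM1 lies between 263 and 312 CPM in treated libraries and between 68.4 and 88.9 CPM in vehicle libraries, and vehicle replicate 2 is the lowest PINK1 value.

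PINK1, the kinase that starts ubiquitin-dependent mitophagy, did not change beyond its spread with all 8 libraries. Its gene lies at chr1:20633455-20651511 on the plus strand (hg38, GENCODE release 29). It had 57.9, 56.3, 55.1 and 49.6 CPM in treated libraries 2 to 5, and 46.8, 67.1, 64.0 and 61.7 CPM in vehicle libraries 2 to 5. The groups overlapped only through vehicle replicate 2, which was below every treated library, while the other 3 vehicle libraries were above every treated one. The log2 fold change was -0.13 ± 0.108 (SE; 95% interval -0.37 to 0.11; edgeR adjusted p = 0.324). Without vehicle replicate 2 it was -0.23 with an edgeR adjusted p of 0.00937. The call therefore depended on that library, and both values are below 0. Per length, PINK1 was at 42.2 ± 0.542 TPM in treated and 48.3 ± 11.5 TPM in vehicle cells (SD, n = 4).

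An antisense gene, PINK1-AS, lies on the opposite strand and shares 1907 exon bases with PINK1. It had 22.2 CPM in treated and 20.8 CPM in vehicle cells (log2 fold change 0.09, edgeR adjusted p = 0.429). Use of strand in the counting is not stated in those sources that were read, so the division of reads between the pair is uncertain.

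SQSTM1, which encodes p62, an adaptor that forms condensates with ubiquitylated cargo, had the largest fold change of the 9 members. It lies at chr5:179806398-179838078 on the plus strand. SQSTM1 had 312, 296, 296 and 263 CPM in treated libraries 2 to 5, and 68.4, 88.9, 85.4 and 84.3 CPM in vehicle libraries 2 to 5. The lowest treated library was well above the highest vehicle library. The level was 3.57-fold higher in treated cells, a log2 fold change of 1.84 ± 0.0927 (SE; 95% interval 1.63 to 2.04; edgeR adjusted p = 1.97e-07). Of all genes tested, 94.8% had a smaller absolute log2 fold change. MRNIP, on the opposite strand, shares 1582 exon bases with SQSTM1 and had 32.2 CPM in treated and 40.4 CPM in vehicle cells (log2 fold change -0.33, edgeR adjusted p = 0.00815), so the SQSTM1 and MRNIP counts moved in opposite directions. MGAT4B, also on the opposite strand, shares 105 exon bases with SQSTM1 and had 104 CPM in treated and 85.4 CPM in vehicle cells. Its log2 fold change was 0.29 (edgeR adjusted p = 0.185), in the direction of SQSTM1 but not called.

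CALCOCO2, which encodes NDP52, an adaptor that recruits the ULK1 complex to ubiquitylated mitochondria and bacteria, had about double the vehicle level. It lies at chr17:48830988-48866522 on the plus strand. CALCOCO2 had 83.6, 84.2, 81.3 and 88.7 CPM in treated libraries, against 46.7, 41.9, 38.5 and 40.3 CPM in vehicle libraries. The groups were far apart, with a treated spread of 3.09 CPM and a vehicle spread of 3.50 CPM (SD, n = 4). The fold change was 2.02, a log2 fold change of 1.01 ± 0.0715 (SE; 95% interval 0.85 to 1.17; edgeR adjusted p = 1.71e-06). A lncRNA that the authors assembled lies on the same strand, at chr17:48865484-48886418. It begins past the end of the coding transcript CALCOCO2-201, at 48865245. The only CALCOCO2 transcript whose span it overlaps is the noncoding CALCOCO2-218, at 48865085 to 48866522.

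TAX1BP1, an adaptor of the same SKICH and coiled-coil family as CALCOCO2, rose less. It lies at chr7:27739331-27844564 on the plus strand. TAX1BP1 had 174, 169, 184 and 205 CPM in treated libraries, against 160, 122, 129 and 128 CPM in vehicle libraries. Vehicle replicate 2 came nearest to the treated libraries, and the groups did not overlap. The log2 fold change was 0.44 ± 0.0969 (SE; 95% interval 0.23 to 0.66; edgeR adjusted p = 0.00290). JAZF1 and TAX1BP1-AS1, on the opposite strand, share 415 and 175 exon bases with TAX1BP1 and had at most 151 and 3 reads in any library.

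NBR1, an adaptor that works with SQSTM1 on ubiquitylated protein aggregates and peroxisomes, rose by a small amount with a narrow spread in vehicle cells. It lies at chr17:43170481-43211689 on the plus strand. NBR1 had 166, 166, 178 and 191 CPM in treated libraries, against 141, 143, 147 and 147 CPM in vehicle libraries. The groups did not overlap in CPM. The log2 fold change was 0.28 ± 0.0625 (SE; 95% interval 0.14 to 0.42; edgeR adjusted p = 0.00336). On library totals without TMM factors it was 0.18 with an edgeR adjusted p of 0.0536, which ended the call. An unnamed lincRNA gene on the opposite strand, ENSG00000267002, shares 463 exon bases with NBR1 and was also higher in treated cells, at 23.3 CPM against 17.5 CPM in vehicle cells (log2 fold change 0.41, edgeR adjusted p = 0.00218).

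OPTN encodes optineurin, the adaptor that TBK1 phosphorylates to strengthen its hold on ubiquitin, and its call was marginal. It lies at chr10:13099449-13138308 on the plus strand. OPTN had 41.9, 43.3, 42.9 and 46.7 CPM in treated libraries, against 42.6, 38.7, 35.2 and 34.5 CPM in vehicle libraries. Vehicle replicate 2 lay inside the treated range, and the other 3 vehicle libraries lay below it. The log2 fold change was 0.21 ± 0.0799 (SE; 95% interval 0.03 to 0.39; edgeR adjusted p = 0.0424). The call was lost in 7 of the 8 fits that leave out 1 library, with log2 fold changes from 0.17 to 0.24, and held without vehicle replicate 2 (0.27, edgeR adjusted p = 0.00372). It was also lost with library totals (0.12, edgeR adjusted p = 0.194) and without a filter on low counts (0.20, edgeR adjusted p = 0.0709). With a block for the replicate number the call was lost too (0.22, edgeR adjusted p = 0.0849). In the authors' deposited table the log2 fold change of OPTN is 0.20 and its false discovery rate is 0.0861, so OPTN is the 1 of the 9 members whose call differs between that table and the present fit.

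The 4 promoter stretches that follow come from SQSTM1, CALCOCO2, BNIP3 and FUNDC1. SQSTM1 and CALCOCO2 had the 2 largest rises of the 9 members, and FUNDC1 was the member that fell. BNIP3 is shown because the shares of 2 of its transcripts, which differ in their starts, are described further on. Each is the part of a RefSeq promoter window (GRCh38.p14, 250 bases before to 50 after a transcript start) that lies before the next exon of the gene's coding transcripts in GENCODE release 29, cut to at most 150 bases and written 5′ to 3′ on the gene's strand. The SQSTM1 stretch comes from the most downstream of that gene's 3 windows. Capitals mark matches to the motifs named after the sequences.
SQSTM1, chr5:179820655-179820758, plus strand: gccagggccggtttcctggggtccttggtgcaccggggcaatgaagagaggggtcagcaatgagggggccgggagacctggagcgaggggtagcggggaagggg
CALCOCO2, chr17:48830838-48830987, plus strand: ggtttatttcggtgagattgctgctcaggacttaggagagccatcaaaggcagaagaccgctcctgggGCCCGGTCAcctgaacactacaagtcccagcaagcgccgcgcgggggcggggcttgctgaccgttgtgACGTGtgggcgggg
BNIP3, chr10:131982014-131982163, minus strand: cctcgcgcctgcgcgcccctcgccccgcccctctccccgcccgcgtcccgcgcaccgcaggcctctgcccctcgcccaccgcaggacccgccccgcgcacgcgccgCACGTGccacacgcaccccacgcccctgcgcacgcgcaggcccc
FUNDC1, chrX:44543002-44543109, minus strand: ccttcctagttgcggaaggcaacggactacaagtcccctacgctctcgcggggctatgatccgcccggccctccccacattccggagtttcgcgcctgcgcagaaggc

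Sets of letters for 4 motifs were searched on both strands of 12 windows of 300 bases, which came from 7 of the 9 members. Windows on chromosome 8, where BNIP3L lies, were left out of the search of members, and PINK1 had no window in that table. The antioxidant response element, TGACNNNGC, which NRF2 binds, was in 1 of the 12 windows and in 13.3% of all 35116 windows of the table. That match was in CALCOCO2, on the minus strand, starting 129 bases before the transcript start. The response element of C/EBP and ATF factors, TGATGNAA, was in 0 of the 12 windows and in 3.62% of all windows. The hypoxia response core, ACGTG, was in 2 of the 12 windows and in 21.4% of all windows. It began 61 bases before the start in CALCOCO2 and 133 bases before the start in BNIP3. That BNIP3 start, at 131981923, is the start of the minor transcript BNIP3-202. The main transcript BNIP3-201 begins 90 bases upstream of it, so the match lies nearer to the start of BNIP3-201. The E-box CACGTG, which holds the hypoxia core within it, was in the BNIP3 window and in 7.26% of all windows. In the 3 windows of SQSTM1 none of the 4 motifs was found. The last of these windows ends at position 179820954. The main transcript, SQSTM1-201, held 53.7% of SQSTM1 TPM in treated and 53.5% in vehicle cells and is annotated from 179822485. The sequence just before that start was therefore not searched. The matches are letters in these windows, and binding was not measured.

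The 3 outer-membrane receptors did not move together. FUNDC1, whose LC3-binding motif is controlled by SRC, casein kinase 2 and the phosphatase PGAM5, fell. It lies at chrX:44523639-44543001 on the minus strand and had the fewest reads of the members, 874 to 1732 per library. FUNDC1 had 10.4, 9.71, 10.4 and 11.5 CPM in treated libraries, against 16.8, 14.5, 14.6 and 15.0 CPM in vehicle libraries. Every treated library was below every vehicle library. The log2 fold change was -0.54 ± 0.0818 (SE; 95% interval -0.72 to -0.36; edgeR adjusted p = 2.88e-04), a treated level of 0.689 times that of vehicle cells. Its relative FUNDC2, an outer-membrane protein, had 38.9 CPM in treated and 38.2 CPM in vehicle cells (log2 fold change 0.03, edgeR adjusted p = 0.732) and is named here after its value was seen.

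BNIP3, a receptor induced by hypoxia in many cells, lies at chr10:131966455-131982013 on the minus strand. It had 48.6, 47.1, 46.4 and 50.4 CPM in treated libraries, against 42.5, 44.0, 45.0 and 45.2 CPM in vehicle libraries. The groups did not overlap, yet the difference was small and BNIP3 did not pass the threshold (log2 fold change 0.12 ± 0.0580, SE; 95% interval -0.01 to 0.25; edgeR adjusted p = 0.0910). Per length the order was the other way in the means, at 60.7 ± 3.47 TPM in treated and 64.6 ± 10.8 TPM in vehicle cells (SD, n = 4). The groups overlapped only through vehicle replicate 2, at 48.6 TPM, and the other 3 vehicle libraries, at 68.2 to 72.3 TPM, were above every treated one. The mean effective length that the authors' quantifier gave BNIP3 was 1419 bases in treated and 1280 bases in vehicle cells. With that length as an offset the log2 fold change was -0.019 (edgeR adjusted p = 0.827), so no direction is given for BNIP3. The pseudogene copies of BNIP3 that carry its name had at most 21.2 reads each in any library. ENSG00000277959, an antisense gene that shares no exon bases with BNIP3, had at most 35 reads in any library. It was higher in treated cells (log2 fold change 1.15, edgeR adjusted p = 0.0198).

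BNIP3L, also called NIX, the receptor that clears mitochondria from maturing red cells, lies at chr8:26382898-26505636 on the plus strand. It had 178, 173, 173 and 204 CPM in treated libraries, against 177, 166, 170 and 173 CPM in vehicle libraries. The groups overlapped, and treated replicate 5 was the highest of the 8. The log2 fold change was 0.09 ± 0.0675 (SE; 95% interval -0.06 to 0.24; edgeR adjusted p = 0.287), and its sign changed with the length offset (-0.042). PNMA2, on the opposite strand, shares 330 exon bases with BNIP3L and was lower in treated cells, at 146 CPM against 184 CPM in vehicle cells (log2 fold change -0.33, edgeR adjusted p = 0.00276). The pseudogene SDAD1P1, also on the opposite strand, shares 56 exon bases with BNIP3L. It was lower too, at 3.39 CPM in treated and 5.28 CPM in vehicle cells (log2 fold change -0.64, edgeR adjusted p = 3.31e-04).

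**Figure D2:**
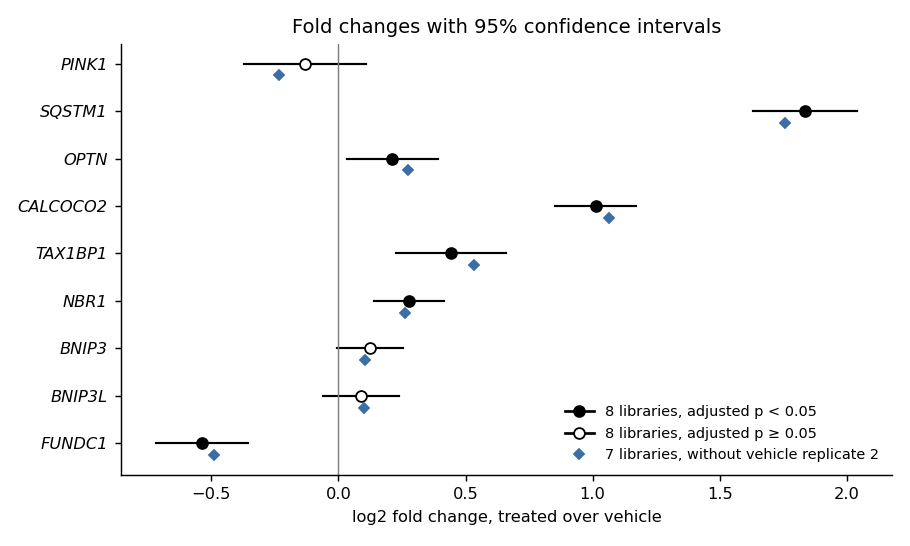
Log2 fold change (treated over vehicle) for each member, with circles and 95% confidence intervals from all 8 libraries (filled where the edgeR adjusted p was under 0.05) and diamonds from 7 libraries without vehicle replicate 2. SQSTM1 at 1.84 and CALCOCO2 at 1.01 lie farthest right, FUNDC1 at -0.54 farthest left, and PINK1 has -0.13 with all libraries and -0.23 without vehicle replicate 2.

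Levels of different genes were compared per length, in TPM. In treated cells SQSTM1 was first of the 9 members at 293 ± 9.75 TPM, followed by TAX1BP1 at 124 ± 10.1, BNIP3L at 116 ± 5.13, CALCOCO2 at 86.9 ± 5.83, NBR1 at 72.6 ± 5.42, BNIP3 at 60.7 ± 3.47, PINK1 at 42.2 ± 0.542, OPTN at 33.0 ± 1.84 and FUNDC1 at 23.2 ± 1.56 TPM (SD, n = 4). In that order only the ranges of TAX1BP1 and BNIP3L, and of CALCOCO2 and NBR1, overlapped between neighbours. In vehicle cells BNIP3L was first at 124 ± 3.78 TPM, followed by TAX1BP1 at 95.3 ± 4.26, SQSTM1 at 89.9 ± 21.0, BNIP3 at 64.6 ± 10.8, NBR1 at 62.1 ± 9.50, PINK1 at 48.3 ± 11.5, CALCOCO2 at 45.2 ± 4.83, FUNDC1 at 35.0 ± 3.65 and OPTN at 28.2 ± 1.73 TPM (SD, n = 4). There each neighbour from TAX1BP1 to CALCOCO2 overlapped the next, so that stretch of the order does not hold beyond the spread. FUNDC1 and OPTN overlapped too. Vehicle replicate 2 had 30.2% of its TPM on the mitochondrial genome, against 10.3 to 13.0% in the other vehicle libraries. With TPM over nuclear genes only, the vehicle means kept the same order. SQSTM1 and BNIP3, NBR1 and PINK1, and FUNDC1 and OPTN then no longer overlapped, while the other overlaps stayed.

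The summed level of the 5 adaptors was 609 ± 14.4 TPM in treated and 321 ± 33.0 TPM in vehicle cells (SD, n = 4). SQSTM1 made up 48.1 ± 2.20% of that sum in treated cells and 27.7 ± 4.08% in vehicle cells, with a range of 45.1 to 50.3% against 21.7 to 30.5%. The share of CALCOCO2 was 14.3% in both groups. TAX1BP1 held 20.3% in treated and 29.9% in vehicle cells. NBR1 held 11.9% in treated and 19.3% in vehicle cells, and OPTN 5.42% in treated and 8.84% in vehicle cells. These shares are descriptions with no test, and because they sum to the whole, a larger share of SQSTM1 lowers the others.

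**Figure D3:**
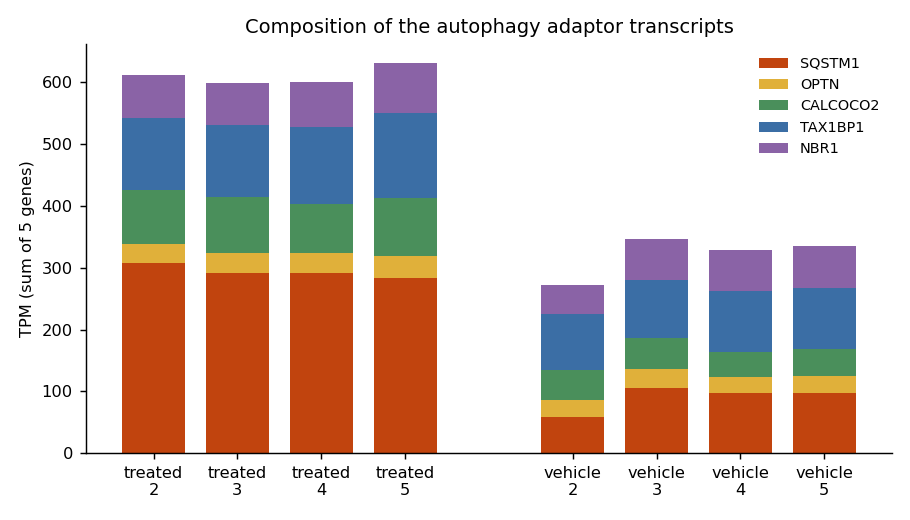
TPM of the 5 ubiquitin-binding adaptors stacked in each library, treated libraries left and vehicle libraries right, numbered by differentiation batch. The stacks reach 599 to 629 TPM in treated and 272 to 346 TPM in vehicle libraries, and the SQSTM1 segment at the base is the one that differs most in height.

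The transcript tables were used to ask whether members changed which of their transcripts were made. By edgeR's transcript usage test with Simes p-values, 1 of 9 members, BNIP3L, was called (adjusted p = 0.0414), against 9.34% of all 11746 genes with 2 or more transcripts. Without vehicle replicate 2, 4 members were called: SQSTM1 (adjusted p = 0.00292), BNIP3 (0.00333), BNIP3L (0.0228) and OPTN (0.0491). The share of all genes called for usage in that fit was not counted, so these 4 have no background. In the gene test, leaving that library out raised the calls over all genes from 11461 to 12702. The main transcript of BNIP3L, BNIP3L-201, held 81.9, 82.3, 80.6 and 91.2% of the gene's TPM in treated libraries and 46.6, 84.4, 83.4 and 83.8% in vehicle libraries. BNIP3L-202 held 14.8, 15.2, 15.7 and 4.54% in treated and 36.4, 14.9, 15.8 and 15.1% in vehicle libraries. Treated replicate 5 and vehicle replicate 2 stood away from the rest, and the other 6 libraries were alike in both. The smallest p within BNIP3L came from the minor transcript BNIP3L-207, named here after its values were seen, at 3.03, 2.05, 3.46 and 4.01% in treated and 0.204, 0.615, 0.473 and 0.311% in vehicle libraries (transcript adjusted p = 0.0516). Of all 65332 transcripts tested, 2.3% were called at that level. The call for BNIP3L was lost in 6 of the 8 fits that leave out 1 library.

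Among transcripts that held at least 5% of their gene in a group, the shares did not overlap between groups for 8 of 29 member transcripts, against 24% of 38653 such transcripts over all genes. The following were named after their values were seen. BNIP3-202 held 15.3, 16.5, 16.1 and 14.4% of BNIP3 in treated libraries and 7.23, 7.49, 7.29 and 6.54% in vehicle libraries. Its first base, at position 131981923, is 90 bases inside the start of the main transcript BNIP3-201, and the promoter stretch printed above ends where BNIP3-201 begins. BNIP3-201 held 78.1 ± 1.87% in treated and 87.1 ± 1.26% in vehicle cells (SD, n = 4). The transcript test gave BNIP3-202 an adjusted p of 0.161 with all 8 libraries and 0.00332 without vehicle replicate 2. SQSTM1-215, a short coding transcript from the upstream start, held 3.65 ± 0.413% of SQSTM1 in treated and 8.22 ± 0.478% in vehicle cells, with an adjusted p of 0.799 with all libraries and 0.0413 without vehicle replicate 2. OPTN-202 held 6.63 ± 3.13% of OPTN in treated and 1.93 ± 1.37% in vehicle cells, with overlapping libraries, and its adjusted p was 0.102 with all libraries and 0.0212 without vehicle replicate 2. Shares of similar transcripts are uncertain, and SQSTM1-213 shows it, listed at 0% in vehicle replicate 2 and at 17.9 to 21.0% in the other 7 libraries.

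**Figure D4:**
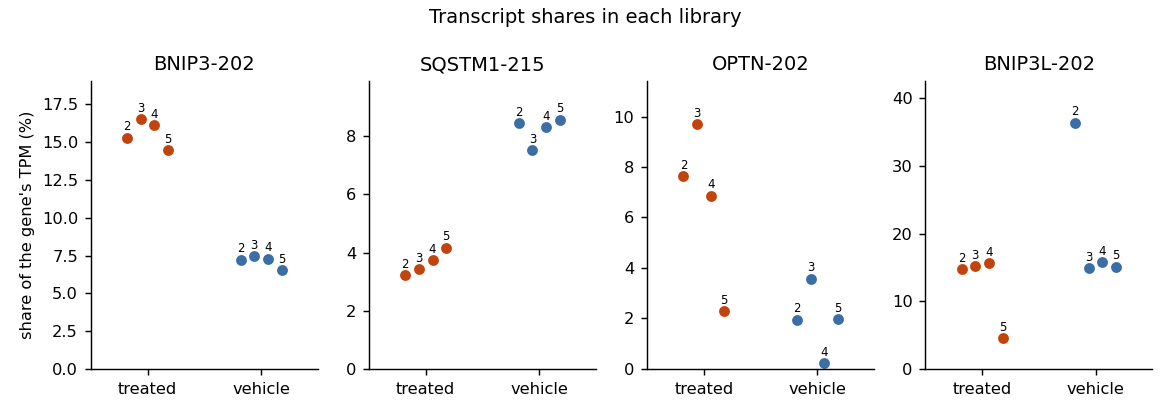
Share of the gene's TPM held by 4 transcripts in each library, treated cells left and vehicle cells right, numbered by differentiation batch. BNIP3-202 lies at 14.4 to 16.5% in treated and 6.54 to 7.49% in vehicle libraries. The share of SQSTM1-215, though not its TPM, lies lower in every treated library, while OPTN-202 and BNIP3L-202 each have a library away from its group.

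Around the members, 70 genes of the pathway were read in 8 lists, of which 24 were higher and 10 lower in treated cells. That is 48.6% called, against 57.9% of all genes tested, of which 27.7% were called higher and 30.2% lower. On library totals without TMM factors the balance turned, with 14 higher and 19 lower. The calls over all genes moved the same way, to 4280 higher and 7023 lower, from 5484 and 5977 with TMM. Of 11 genes of PINK1 import and processing, 1 rose, 4 fell and 6 were not called (median log2 fold change -0.09, against -0.02 over all genes). OMA1, the inner-membrane protease that cleaves PINK1 when the membrane potential is lost, fell by 0.68 on the log2 scale (SE 0.114, edgeR adjusted p = 5.60e-04). TIMM23, the channel of the inner-membrane translocase, fell by 0.26, and PMPCB, a subunit of the matrix processing peptidase, by 0.29. TOMM20, a receptor of the outer-membrane translocase, rose by 0.39 (edgeR adjusted p = 5.82e-04).

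Of 13 ubiquitin ligases, conjugating enzymes and deubiquitinases, 5 rose, 2 fell and 6 were not called (median 0.13). UBE2N, a conjugating enzyme that builds K63 chains, fell by 0.54 (edgeR adjusted p = 7.45e-05), and USP35, a deubiquitinase, fell by 0.39. The deubiquitinases USP15 and USP30, which counter mitophagy, rose by 0.32 and 0.19, and the conjugating enzyme UBE2D2 rose by 0.28. The USP30 call was lost with library totals (0.089, edgeR adjusted p = 0.242) and with the length offset (0.079, edgeR adjusted p = 0.607). Of 7 outer-membrane proteins that are ubiquitylated in mitophagy, 2 rose, 1 fell and 4 were not called (median 0.13). RHOT1, which encodes the mitochondrial transport protein Miro1, rose by 0.43 (edgeR adjusted p = 3.99e-04) and MFN2, a mitofusin, by 0.26. VDAC3, a porin, fell by 0.51 (edgeR adjusted p = 0.00189).

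Of 10 receptor kinases and their adaptors, 5 rose, 0 fell and 5 were not called (median 0.19). ULK1, the kinase that starts autophagosome formation and phosphorylates FUNDC1, had 287 CPM in treated and 151 CPM in vehicle cells (log2 fold change 0.92 ± 0.152, SE; edgeR adjusted p = 4.70e-04). TBK1, which phosphorylates OPTN and SQSTM1, had 42.1 CPM in treated and 26.9 CPM in vehicle cells (0.65 ± 0.0882, SE; edgeR adjusted p = 1.38e-04). AZI2, a TBK1 adaptor also called NAP1, rose by 0.42. Of 10 other autophagosome initiation genes, 4 rose, 2 fell and 4 were not called (median 0.15). ATG101 and ATG13, subunits of the ULK1 complex, rose by 0.81 and 0.36, and ATG14, a subunit of the lipid kinase complex, by 0.26. The ATG14 call was lost with library totals (0.16, edgeR adjusted p = 0.0590). ULK2, the close relative of ULK1, fell by 0.63 (edgeR adjusted p = 5.73e-06), opposite to ULK1. PIK3C3, the catalytic subunit of the lipid kinase complex, fell by 0.24 (edgeR adjusted p = 0.00877), and its sign changed with the length offset (0.081).

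Of 5 SQSTM1 partners, 3 rose, 0 fell and 2 were not called (median 0.27). NFE2L2, which encodes NRF2, a factor that SQSTM1 frees from KEAP1 and that transcribes SQSTM1, had 174 CPM in treated and 72.3 CPM in vehicle cells (log2 fold change 1.27 ± 0.0836, SE; edgeR adjusted p = 1.08e-06). PRKCZ, an atypical protein kinase C, and TRAF6, a ubiquitin ligase, rose by 0.31 and 0.27. The TRAF6 call was lost with library totals (0.17, edgeR adjusted p = 0.0750) and with the length offset (0.15, edgeR adjusted p = 0.124). Of 5 regulators of BNIP3 and BNIP3L, 2 rose, 1 fell and 2 were not called (median 0.04). FOXO3, a factor that transcribes BNIP3 in muscle, rose by 0.79 (edgeR adjusted p = 6.19e-06). FBXL4, the ligase subunit that has BNIP3 and BNIP3L proteins degraded, fell by 0.44 (edgeR adjusted p = 3.68e-04), while PPTC7, the phosphatase that works with it, rose by 0.38 (edgeR adjusted p = 5.61e-04). Of 9 other mitophagy receptors and adaptors, 2 rose, 0 fell and 7 were not called (median 0.05). TOLLIP, a ubiquitin- and LC3-binding adaptor, rose by 0.78 (edgeR adjusted p = 9.28e-04), and WDFY3, a large autophagy scaffold, by 0.29 (edgeR adjusted p = 0.0355). The WDFY3 call was lost with library totals (0.20, edgeR adjusted p = 0.151), with the length offset (0.19, edgeR adjusted p = 0.197) and in 6 of the 8 fits that leave out 1 library.

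**Figure D5:**
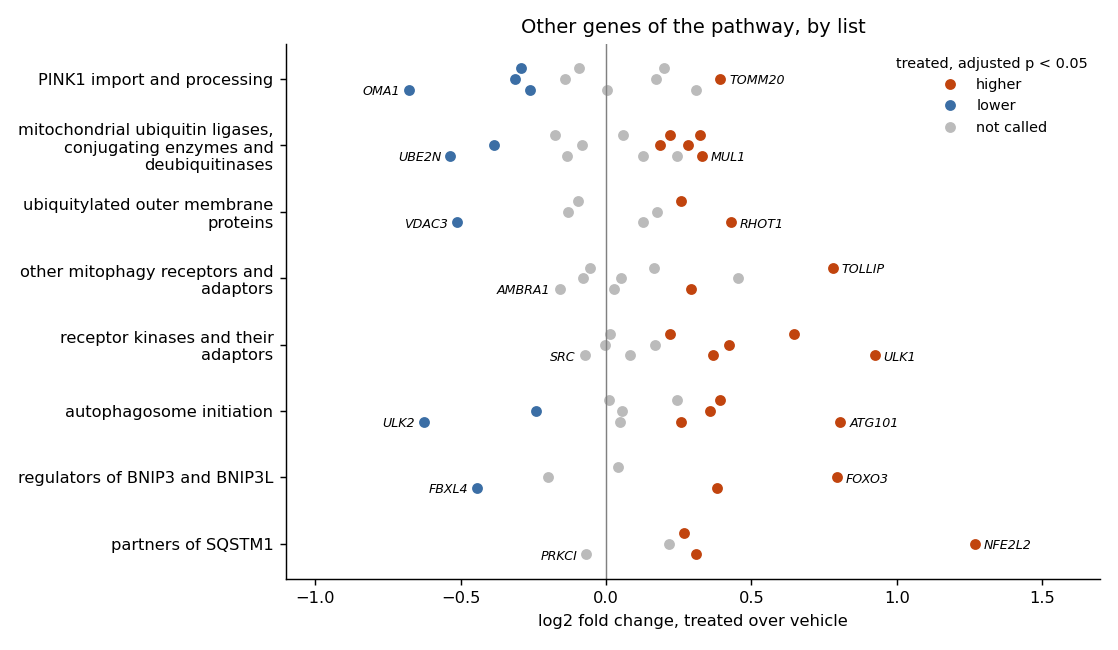
Log2 fold change (treated over vehicle) for the 70 other pathway genes, 1 row per list, coloured by whether the edgeR adjusted p was under 0.05 and in which direction, with the extreme gene at each end named. NFE2L2 at 1.27 and ULK1 at 0.92 lie farthest right, and OMA1 at -0.68 and ULK2 at -0.63 farthest left.

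The genes whose pattern over the 8 libraries was most like that of a member were taken from 10732 protein-coding genes with a mean of at least 5 CPM, as the 2 highest Pearson correlations of log2 CPM. The points share the 2 groups and vehicle replicate 2, so r is a description. For SQSTM1 these were POFUT2 (r = 0.999) and SLC7A3 (r = 0.999), and 948 genes exceeded 0.95. For CALCOCO2 they were SYT4 (r = 0.999) and EPS15 (r = 0.999), with 972 genes over 0.95, and for FUNDC1 XRCC4 (r = 0.997) and PAIP1 (r = 0.996), with 832. TAX1BP1 was most like SCFD1 (r = 0.996) and LSAMP (r = 0.993), and NBR1 most like CGGBP1 (r = 0.997) and ZNF566 (r = 0.996). PINK1 was most like GPRC5C (r = 0.994) and CIRBP (r = 0.989), with 73 genes over 0.95. OPTN was most like ENSG00000285976 (r = 0.989) and TCEAL9 (r = 0.987), and BNIP3 most like EI24 (r = 0.977) and ADPRM (r = 0.970). BNIP3L was most like PNPT1 (r = 0.981) and UGP2 (r = 0.972), the only 2 genes over 0.95 for it.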

How the data were processed

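Polyadenylated RNA from 8 LUHMES libraries was prepared with the KAPA mRNA HyperPrep kit from 1.3 µg of RNA, per the labels. Per the file headers, the authors' gene and transcript tables hold TPM, estimated counts and effective lengths, and the quantifier is not given in the sources read. HISAT2, SAMtools, StringTie and hg38 are named, without versions, per the submitters' processing notes. For coding genes the authors also deposited a signal per library in an unnamed unit, a log2 fold change, and a p-value with its false discovery rate.

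Estimated counts were rounded, filtered with filterByExpr, scaled by TMM and tested in edgeR 4.0.16 (R 4.3.3) by quasi-likelihood, with Benjamini-Hochberg adjustment over all genes. SE is the log2 fold change divided by the root of the F statistic. Usage was tested with diffSpliceDGE on transcripts that reached 10 reads in 4 or more libraries, which ignores uncertainty in dividing reads among transcripts. Alternatives used DESeq2 1.42.0, limma 3.58.1 on log2(TPM + 1), other scalings, no filter, a length offset, a replicate block and leaving out each library. The fits were tested on simulated data, which held fewer changed genes than the real data. The gene test recovered 5 of 50 changes of 1.2-fold, 34 of 50 of 1.5-fold and 50 of 50 of 2-fold. With fewer changed genes the adjustment is stricter, so these recoveries do not measure the power of the real fit. A member that was not called may still have a small change that was missed. Counting error is small at these depths, and the spread between batches limits precision. The members and the pathway lists were chosen with earlier results of these data known. Named were all members, up to 3 genes each way per list by adjusted p, and the 2 most alike genes per member. Also named were overlapping genes, except some with few or no reads, and the transcripts of at least 5% in members called for usage. A listed gene is not reported here.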

Additional observations from a re-analysis of the deposited data

Results flagged for a closer look

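In each group of 4 libraries, a value is given here when its gap to the nearest other library took more of the group's range than Dixon's 95% limit for 4 values allows. Of 106 groups of member levels and shares checked, 15 met it, and chance alone gives about 1 in 20. Vehicle replicate 2 accounted for 8 of the 15, and its mitochondrial read share is given in the report.

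PINK1 was at 31.2 TPM in vehicle replicate 2, against 52.5 to 56.5 TPM in the other vehicle libraries, and NBR1 at 47.9 TPM against 65.7 to 68.3 TPM. With TPM over nuclear genes only, PINK1 was at 44.7 TPM in that library, against 58.9 to 65.0 TPM in the other vehicle libraries. NBR1 was then at 68.7 TPM, against 75.5 to 76.2 TPM. The SQSTM1 share of adaptor TPM was 21.7% there, against 29.2 to 30.5%. SQSTM1-213 was listed at 0.0% there and SQSTM1-201 at 63.9%, against 49.4 to 50.7% for SQSTM1-201 in the other vehicle libraries. TAX1BP1-201 held 65.8%, BNIP3L-201 46.6% and BNIP3L-202 36.4% in that library.

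BNIP3L was at 204 CPM in treated replicate 5, against 173 to 178 CPM in the other treated libraries. PINK1-201 held 89.8%, TAX1BP1-213 21.0%, TAX1BP1-202 18.6%, BNIP3L-201 91.2% and BNIP3L-202 4.54% in the same library. CALCOCO2-207 held 19.0% in vehicle replicate 3 and was listed at 0.0% in the other vehicle libraries. The causes of these flagged values were not tested.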

How the results depend on the processing

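SQSTM1, CALCOCO2, TAX1BP1 and FUNDC1 kept direction and call under every alternative run. OPTN lost its call with library totals, without a filter and with the replicate block (0.22, edgeR adjusted p = 0.0849). NBR1 lost it with library totals and with limma (0.23, adjusted p = 0.131). With all alternatives counted, 117 of 135 values of members and 381 of 420 values of named pathway genes kept direction and call. The sign changed for BNIP3 with the length offset (-0.019) and with limma (-0.074), for BNIP3L with library totals (-0.0081), the length offset (-0.042) and limma (-0.088), and for PIK3C3 with the length offset (0.081) and limma (0.038). The causes were not tested.

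Library totals moved the median of all genes by -0.0976 and the share of higher calls to 37.9%, against 47.8% with TMM. They gave 3 members higher (5 with TMM), and 14 pathway genes higher and 19 lower (24 and 10 with TMM). Limma on log2(TPM + 1) called 20 pathway genes in all, 11 of them higher, and 9485 of all genes, 3947 of them higher. Leaving out single libraries gave 5 to 7 members called, 4 to 5 of them higher and 1 to 2 lower, with the highest, 7 called and 2 lower, without vehicle replicate 2, when PINK1 joined. It gave 28 to 40 pathway genes called and 10214 to 12702 of all genes. With limma the log2 fold change was 0.040 for USP30, 0.084 for TRAF6 and 0.14 for WDFY3, none called. Limma also ended the calls of ATG14 (0.19, adjusted p = 0.183) and ATG13 (0.26, adjusted p = 0.0593). The calls of TOMM20 (0.36, limma adjusted p = 0.0688) and TIMM23 (-0.29, limma adjusted p = 0.0785) were lost too. USP30, WDFY3, USP35 and TRAF6 each lost the call without some single library.

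Member genes called for transcript usage were 1 with all libraries and 0 to 4 with 1 library left out. The 4, called without vehicle replicate 2, were SQSTM1, BNIP3, BNIP3L and OPTN. With the replicate block 2 were called, BNIP3L and TAX1BP1. The share over all genes was counted only with all libraries, at 9.34%, so the other counts have no background. The same-numbered libraries of the groups did not deviate together (correlations -0.0797, 0.0316, 0.0252 and -0.0014). With 4 libraries in each group and vehicle replicate 2 apart, this cannot exclude that a number marks a batch shared by both groups. With the replicate block 5 members and 10764 of all genes were called, against 6 and 11461 without it. Depth did not limit the members, each with at least 874 reads per library.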
